A study of Homo sapiens with 10 samples.

Results

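The genes described here encode subunits of the proteasome, its activators, its inhibitor and its assembly chaperones. They were taken by symbol, as every autosomal protein-coding gene of GENCODE release 44 named PSMA, PSMB, PSMC, PSMD, PSME, PSMF or PSMG with a number, which gave 47 of 19111 genes on 16 chromosomes. The X-linked gene PSMD10 was not a member. Nucleosome positions within 1500 bp of the canonical transcription start were available for 45 members, as for 18682 of all the genes, and these positions numbered 683. PSMB5 and PSMB11, which lie beside each other on chromosome 14, had no listed position in the window and were not analysed here, as for 429 genes in all.

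The positions came from undifferentiated human induced pluripotent stem cells (hiPSCs) of the PB010.5 line, whose cells bear the FUCCI reporter of the cell cycle. All cells came from this 1 line and were digested for 5 min with micrococcal nuclease (MNase) at 10 U, 6 U, 3 U, 1 U or 0.5 U. MNase is an enzyme that cuts linker DNA. The 5 libraries were each sequenced with 150-bp and 50-bp paired-end reads, giving 10 samples, and the authors pooled libraries into a single list of 12921589 positions on GRCh38. This list is far larger than the set of mononucleosomes that the paper ranked by accessibility. Concentrations cannot be separated in the list, so there were no replicates, no test between conditions was possible and every value below is a description. Each position is an interval of 140 bp, located here by its midpoint, with a score that is the authors' signal. Within a tolerance of 0.01 steps, 99.99986% of the scores are whole multiples of a step of 1.23, their median is 14.8 and their quartiles are 9.87 and 19.7. The number of reads behind a score is unknown, and nearly all scores differ by at least 1 step if they differ.

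The 26S proteasome degrades proteins tagged with ubiquitin. Its 20S core is a barrel in which outer rings of alpha subunits gate the chamber and inner rings of beta subunits carry the proteolytic sites, while the 19S regulator recognises substrates and unfolds them with a ring of ATPases. Interferon induces the immunoproteasome subunits PSMB8, PSMB9 and PSMB10, which replace PSMB5, PSMB6 and PSMB7 in newly built cores and favour peptides that fit MHC class I. Expressed genes of this housekeeping kind commonly carry a nucleosome-depleted stretch at the start, followed by a well-placed first downstream nucleosome, known as the +1 nucleosome.

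Short promoter sequences are shown at some of the members that match an interferon type or an antioxidant type of motif. Neither type was confined to the inducible or to the constitutive genes, as given further on. Each is a window of 29 bases of GRCh38 written 5′ to 3′ in the direction of its gene, with a motif match in capitals. The matches to GAAANNGAA, the core of an interferon-stimulated response element, were read on both strands, so that 2 of the windows show the reverse complement.

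PSMB8: atctgtggctTTCGCTTTCacttcctcct
PSMB10: gggtaaaggcGAAAGCGAAagcaggaagt
PSME1: ccctaccgctTTCGCTTTCccttcgcggt
PSME2: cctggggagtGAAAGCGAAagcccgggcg

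These windows lie at chr6:32844032-32844060 on the minus strand, chr16:67936853-67936881 on the minus strand, chr14:24136190-24136218 on the plus strand and chr14:24146620-24146648 on the minus strand. The matches span -3 to 5 bp from the start of PSMB8, -21 to -13 bp at PSMB10, 6 to 14 bp at PSME1 and -28 to -20 bp at PSME2. For the antioxidant response type TGACNNNGC, bound by CNC-bZIP factors such as NFE2L1, 3 members with an open upstream region are shown.

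PSMB3: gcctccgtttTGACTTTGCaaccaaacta
PSMB6: ccaaagagcgTGACAGAGCgctttacgac
PSMD5: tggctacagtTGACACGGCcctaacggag

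They lie at chr17:38752627-38752655 and chr17:4796135-4796163 on the plus strand and at chr9:120843038-120843066 on the minus strand. Their matches span -104 to -96 bp, -19 to -11 bp and -134 to -126 bp from the starts.

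The gap, defined here as the distance from the last midpoint upstream to the first midpoint downstream, described how open each start was. Its median over the 45 members was 220 bp with quartiles of 170 and 330 bp, against 220 bp with quartiles of 170 and 305 bp over all genes. Among genes of the same decile of GC content over 1000 bp, the median member stood at percentile 43.96. With all listed positions counted, the proteasome genes as a group therefore had gaps of usual width. With positions below the median score of the list left out, the median gap was 390 bp, against 340 bp over all genes. The median member then stood at percentile 62.6. With all positions counted, single members ranged from 110 to 480 bp. The map of positions at each gene shows this range from the narrow to the wide end.

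**Figure D1:**
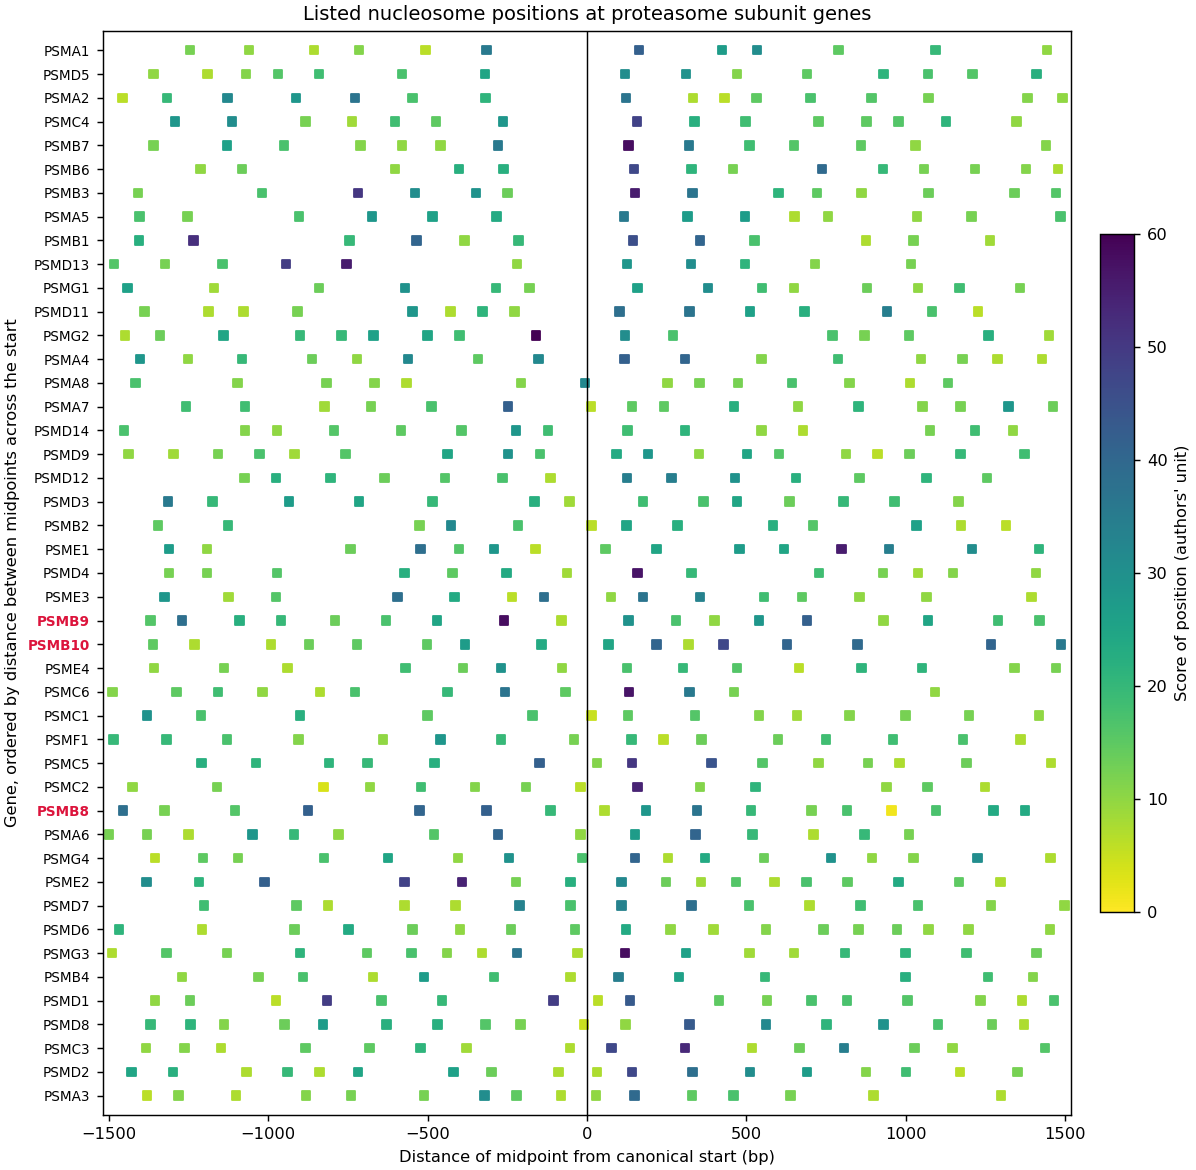
Listed nucleosome positions at the 45 proteasome genes with positions, plotted by the distance of the midpoint from the canonical start in bp and coloured by score, with genes ordered by gap from 110 bp (PSMA3, bottom) to 480 bp (PSMA1, top). Strong positions line up downstream of the start near 135 bp in most rows, and the immunoproteasome genes are named in red.

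The 8 widest gaps belonged to 7 genes of the constitutive particle and to PSMD5. They were 480 bp at PSMA1, 440 bp at PSMA2 and 400 bp at PSMA5, which encode alpha subunits of the gate ring. In the beta ring they were 410 bp at PSMB6, the caspase-like protease subunit, 410 bp at PSMB7, the trypsin-like subunit, and 400 bp at the structural subunit PSMB3. The others were 440 bp at PSMD5, a chaperone of 19S base assembly, and 420 bp at the ATPase gene PSMC4. A gap of at least 400 bp was found in 8.84% of all genes, and 8 of 45 members reached it. The same 8 genes were in the widest 10% of their GC decile, a class that held 9.92% of all genes. At PSMA1 the flanking positions lay at -316 bp with a score of 35.8 and at 164 bp with a score of 41.9, so both sides of the widest gap carried strong positions.

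The narrowest gaps were 110 bp at PSMA3, 120 bp at PSMD2, which encodes the large scaffold RPN1, and 130 bp at both the ATPase gene PSMC3 and PSMD8. Weak positions close to the start made these gaps narrow. At PSMA3 the flanking positions had scores of 7.40 at -81 bp and 9.87 at 29 bp, and at PSMD2 they had scores of 7.40 at -89 bp and 7.40 at 31 bp. When positions below the median score of the list were left out, the gap became 370 bp at PSMA3, 560 bp at PSMD2, 600 bp at PSMC3 and 640 bp at PSMD8. The wide gaps of PSMA1, PSMA2, PSMA5, PSMB6, PSMB7, PSMC4 and PSMD5 kept their width, and that of PSMB3 became 500 bp.

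The 200 bp upstream of the start held no midpoint in 13 of 45 members (28.9%), beside 24.1% of all genes and 25.6% of genes weighted to the members' GC deciles. These were PSMA1, PSMA2, PSMA5, PSMA7, PSMB1, PSMB2, PSMB3, PSMB6, PSMB7, PSMC4, PSMD5, PSMD11 and PSMD13. The beta ring gave 5 of them among its 6 analysed genes, and neither an immunoproteasome nor an activator gene was among them. Of the 32 members with an upstream midpoint, 15 had no position there at or above the median score of the list, where this held for 37.0% of all genes with such a midpoint. With positions below the median score left out, the 200 bp upstream were empty in 28 of 45 members, beside 52.2% of all genes.

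Gaps also differed in width between the roles. The median was 380 bp over 6 constitutive beta ring genes, 270 bp over 7 alpha ring genes, 230 bp over 13 PSMD genes, 222.5 bp over the 4 PSMG genes, which encode chaperones of core assembly, 210 bp over the 3 immunoproteasome genes, 207.5 bp over 4 activator genes and 182.5 bp over 6 ATPase genes. The ranges overlapped, since the ATPase genes ran from 130 bp at PSMC3 to 420 bp at PSMC4 and the alpha ring genes from 110 to 480 bp. The PSMD genes, called 19S non-ATPase genes here, include the base assembly chaperones PSMD5 and PSMD9 besides subunits. With few genes to a role and a single list, no test of differences between roles was made.

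Downstream of the start, the strongest position of the proteasome genes scored higher and was more narrowly placed than in genes at large. The planned measure was the first downstream position. Its median score was 29.6 over the members, against 23.4 over all genes. For this score the median member stood at percentile 60.3 of its GC decile, with quartiles over the members of 23.9 and 85.2. In 12 of 45 members the strongest position was not the first. The strongest downstream position, and its ratio to the window given further on, were added as measures after the data were seen. The highest-scoring position within 300 bp downstream had a median score of 34.5 over the members, with quartiles of 25.9 and 45.7, against 25.9 with quartiles of 19.7 and 34.5 over all genes. Its midpoint lay at a median of 135 bp, with quartiles of 122 and 157 bp and an SD of 33.1 bp over the members, against 130 bp with quartiles of 99 and 173 bp and an SD of 66.8 bp over all genes. It lay between 100 and 160 bp in 35 of 45 members (77.8%), beside 45.2% of all genes and 49.1% at the members' GC, a range chosen after the values were seen. This placement depends on the start: from the 5′-most annotated start, 23 of 44 members with a downstream position (52.3%) fell in the range, beside 37.7% of all genes. The 2 starts differ in 36 of the 47 members.

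Among genes of the same GC decile, the strongest downstream score of the median member stood at percentile 65.9. In the top 10% of their decile were 11 of 45 members, beside 9.88% of all genes, and in the lowest 10% were 3 members, beside 9.91%. The highest scores were 58.0 at PSMB7 (130 bp) and 58.0 at PSMG3 (120 bp), which encodes an assembly chaperone of the alpha ring. Scores of 56.8 followed at the ATPase gene PSMC6 (132 bp) and at the ubiquitin receptor gene PSMD4 (158 bp), and a score of 55.5 at PSMB3 (151 bp). The strongest position of PSMB7 covered chr9:124415242-124415381, of which 18 bp were coding and 122 bp intronic in the canonical transcript. That of PSMG3 covered chr7:1569842-1569981 and lay wholly in the 5′ UTR, and that of PSMD4 covered chr1:151254822-151254961 and lay wholly in an intron. The same strong position thus fell in different parts of the gene, and over the members it touched coding sequence in 35, introns in 36 and the 5′ UTR in 19.

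**Figure D2:**
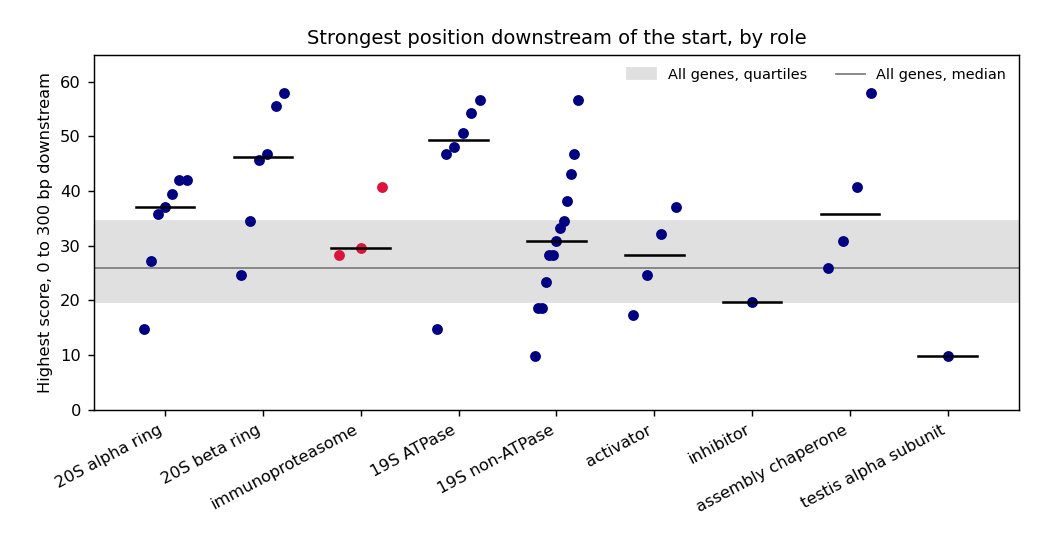
Score of the strongest listed position 0 to 300 bp downstream of the canonical start (vertical axis, authors' unit) for each proteasome gene, 1 point per gene, by role. Black bars are medians of a role, the grey line and band are the median (25.9) and quartiles of all genes, and 5 of the 6 ATPase genes lie above the band.

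By role medians, the strongest downstream score was highest in the ATPase ring and the constitutive beta ring, although PSMG3 and PSMD4 in other roles were among the highest single genes, and the difference between roles was not tested. The median of the strongest downstream score was 49.4 over the 6 ATPase genes, and 5 of them lay between 46.9 and 56.8: PSMC2, PSMC3, PSMC4, PSMC5 and PSMC6. PSMC1, the remaining ATPase gene, had a score of 14.8 at 129 bp. The median was 46.3 over the 6 beta ring genes, 37.0 over the alpha ring, 35.8 over the chaperones, 30.8 over the 19S non-ATPase genes, 29.6 over the immunoproteasome genes and 28.4 over the activators. The lowest values were 9.87 at PSMD8 (121 bp), 9.87 at PSMA8 (253 bp), and 14.8 at both PSMC1 and PSMA7 (142 bp). PSMA8 encodes the alpha subunit of the testis proteasome, and its strongest nearby position lay upstream, at -7 bp with a score of 32.1, so that it covered the start itself. At PSMD8 the nearest upstream and downstream positions had scores of 4.93 at -9 bp and 9.87 at 121 bp, and strong positions began further downstream, at 321 bp.

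In the profile averaged over the members, 2 downstream peaks stood out. Per gene, the summed score was 21.4 in the bin from 100 to 150 bp, against 14.9 for other genes weighted to the same GC deciles, and 15.5 from 300 to 350 bp, against 8.84. The number of midpoints per gene in the first of these bins was 0.622, against 0.475. The summed score of the members was also higher from 150 to 200 bp, 10.3 against 5.85. It was lower just downstream of the start, 1.15 from 0 to 50 bp against 3.20, and from 200 to 250 bp, 2.22 against 3.42. The spacing from the strongest downstream midpoint to the next was 190 bp in the median, as over all genes.

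**Figure D3:**
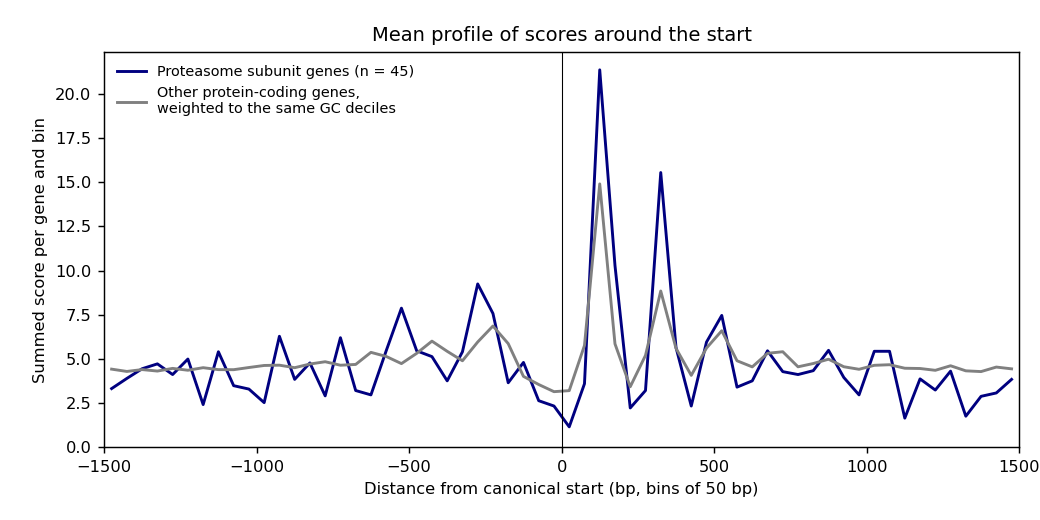
Summed score per gene in bins of 50 bp (vertical axis, authors' unit) by distance from the canonical start in bp, for the 45 proteasome genes and for other protein-coding genes weighted to the same GC deciles. The members reach 21.4 at 100 to 150 bp and 15.5 at 300 to 350 bp, above the other genes in both bins.

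Further out, the members scored lower than other genes, on a measure that was also added after the data were seen. The mean score of positions 1000 to 1500 bp from the start, on both sides, had a median of 14.6 over the members and 16.8 over all genes. It lay in the lower part of the GC decile, below percentile 50, in 36 of 45 members, beside 50.0% of all genes, and the median member stood at percentile 29.8. The median score 10 to 50 kb away was 16.0 for members and for all genes, so the wider neighbourhood had the same median score. The number of positions in the window was also usual, with a median of 15 against 16, and so was their mean score, 18.9 against 18.8. The strongest downstream score divided by the mean score of the window was 1.85 in the median, against 1.37 over all genes, and 10 of 45 members were in the top 10% of their decile for it, beside 10.0% of all genes. The highest ratio was 3.76 at PSMC2, where the strongest downstream position scored 54.3 and the mean of the window was 14.5.

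The 3 immunoproteasome genes differed from this pattern mainly away from the start. Their mean scores 1000 to 1500 bp away were 21.8 at PSMB8, 22.8 at PSMB9 and 24.7 at PSMB10, against a median of 14.4 over the other 42 members. All 3 lay in the upper part of their GC decile, at percentiles 83.2, 87.8 and 93.0. Only 6 of the other 42 members did so: PSMB1, PSMC1, PSMC4, PSMD3, PSME1 and PSME2. PSMB10 had the highest such score of all the members, PSMB9 ranked 4 and PSMB8 ranked 8 of 45. With positions below the median score left out the ranks were 2, 15 and 12 in the same order, and from the 5′-most annotated starts they were 6, 10 and 9. The value of PSMB10 was high on the downstream side only. Its positions there scored 40.7 and 35.8, against 14.8 and 7.40 upstream, and another protein-coding gene starts at 1209 bp. The 3 genes did not stand wholly apart, since PSMB1 reached 23.8 and PSMC4 reached 22.5. The value of PSMB1 includes a position scoring 51.8 at -1235 bp, beyond the start of TBP at -1062 bp on the opposite strand. That start lies just outside the 1000 bp used below for shared promoters.

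The mean score over the whole window gave the same order of groups. It was 23.4 at PSMB8, 23.03 at PSMB9 and 24.98 at PSMB10, with a median of 18.8 over the other members, and the ranks were 6, 7 and 1 of 45. Of all members, PSMB10, PSME1, PSMB1 and PSMB3 were in the top 10% of their GC decile, which is 4 of 45 beside 10.0% of all genes. With positions below the median score left out, the ranks of the mean score became 11 for PSMB8, 19 for PSMB9 and 3 for PSMB10. The median score 10 to 50 kb away was 14.8 at PSMB8, 14.8 at PSMB9 and 19.7 at PSMB10, beside 16.0 over all genes.

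Beside the start, the immunoproteasome genes lay within the range of the other members. At PSMB8, the chymotrypsin-like subunit LMP7, the gap was 170 bp, between positions at -115 bp (score 19.7) and 55 bp (score 7.40). At PSMB9, the subunit LMP2, it was 210 bp, between -80 bp (score 7.40) and 130 bp (score 29.6). At PSMB10, the subunit MECL-1, it was 210 bp, between -142 bp (score 23.4) and 68 bp (score 24.7). All 3 gaps were below the median of 225 bp of the other members, and each gene had 1 midpoint in the 200 bp upstream.

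Their strongest downstream positions scored 28.4 at 185 bp for PSMB8 (chr6:32843792-32843931), 29.6 at 130 bp for PSMB9 (chr6:32854252-32854391) and 40.7 at 218 bp for PSMB10 (chr16:67936562-67936701). The median of 29.6 compares with 35.2 over the other 42 members. PSMB8 and PSMB10 were 2 of the 10 members whose strongest downstream midpoint was outside 100 to 160 bp. From the 5′-most annotated starts the scores became 40.7 for PSMB8, 41.9 for PSMB9 and 40.7 for PSMB10, and the difference of medians then turned to 9.87 in favour of the immunoproteasome genes. The 5′-most start of PSMB9 lies some 10 kb from its canonical start and close to the canonical start of PSMB8, and its 41.9 is the position at -315 bp from PSMB8, so 2 of these 3 values come from the promoter region of PSMB8. The direction of this difference depended on which of the 2 starts was used.

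The constitutive counterparts looked different in the same list. PSMB6, which PSMB9 replaces, had a gap of 410 bp, a strongest downstream score of 46.9 at 148 bp and a mean score of 11.1 at 1000 to 1500 bp. PSMB7, which PSMB10 replaces, had a gap of 410 bp, a strongest downstream score of 58.0 at 130 bp and a mean score of 14.8 at that distance. In both pairs the constitutive gene had the wider gap and the higher downstream score, and the immunoproteasome gene had the higher score away from the start. The difference in gap within the first pair rested on the weak position at -80 bp of PSMB9. With positions below the median score left out, the gaps were 390 bp at PSMB9 and 410 bp at PSMB6. They were then 210 bp at PSMB10 and 410 bp at PSMB7. PSMB5, which PSMB8 replaces, was not analysed here.

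PSME1 and PSME2, which encode the interferon-inducible activator PA28, had values close to the immunoproteasome genes, a grouping made after the values were seen. The mean score 1000 to 1500 bp away was 22.2 at PSME1 and 23.2 at PSME2, ranks 6 and 3 of 45, and the mean over the window was 24.8 and 22.7. The strongest downstream score was 24.7 at 218 bp and 32.1 at 108 bp. The mean score away from the start of PSME2 includes a position scoring 41.9 at -1012 bp, beyond the opposite-strand start of RNF31 at -888 bp. PSME1 and PSME2 lie close together on chromosome 14, and PSMB8 and PSMB9 on chromosome 6, so these genes are not all separate loci. The other activator genes, PSME3 and PSME4, had mean scores away from the start of 13.6 and 13.3. The CpG observed-to-expected ratio of the 1000 bp around the start, a measure of CpG island character, was 0.599 at PSMB8, 0.697 at PSMB9, 0.447 at PSMB10, 0.628 at PSME1 and 0.382 at PSME2, against a median of 0.772 over the members. Other members had low ratios without high scores away from the start, such as PSMC2 with a ratio of 0.438 and a score of 11.1 and PSMC6 with a ratio of 0.595 and a score of 12.8. Whether CpG content plays a part in the scores was not tested.

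**Figure D4:**
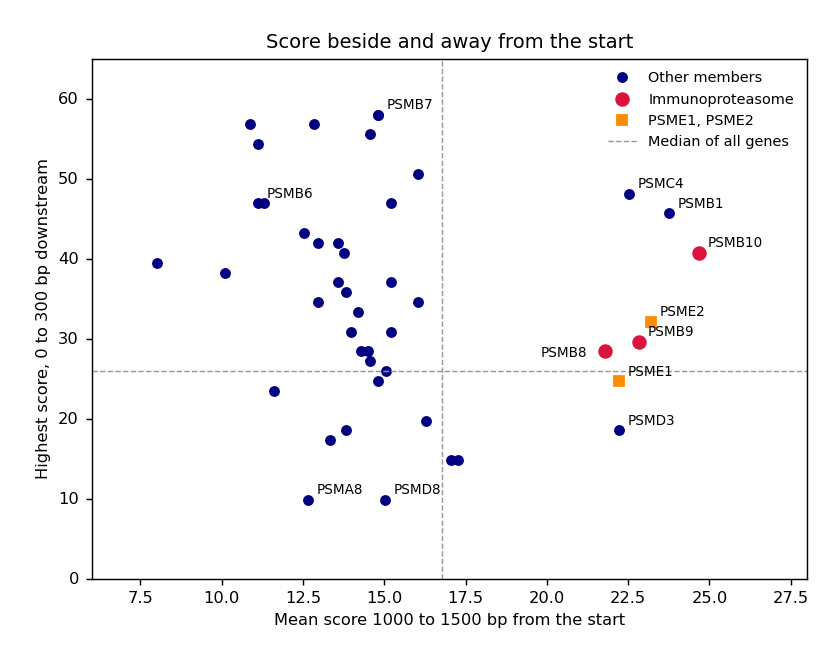
Strongest score 0 to 300 bp downstream of the start (vertical axis) against the mean score 1000 to 1500 bp from the start (horizontal axis), both in the authors' unit, 1 point per proteasome gene, with dashed lines at the medians of all genes. The immunoproteasome genes (red) and PSME1 and PSME2 (orange) lie at 21.8 to 24.7 on the horizontal axis with PSMB1, PSMC4 and PSMD3, and the other members lie lower.

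Some members share their promoter with another gene, and the positions there cannot be assigned to either gene. A protein-coding neighbour started within 1000 bp of 10 members, on the opposite strand in 7. Among them PSMB9 and TAP1, which encodes a subunit of the peptide transporter, are transcribed in opposite directions with the TAP1 start at -488 bp, and the strongest position within 300 bp upstream of PSMB9 scored 58.0 at -260 bp. The others on the opposite strand were PSMA7 with SS18L1, PSMC5 with FTSJ3, PSMD13 with SIRT3, PSME2 with RNF31, PSME4 with ACYP2 and PSMG2 with CEP76. On the same strand, gene models without a symbol start at 42 bp from PSMA1, -40 bp from PSMA2 and 19 bp from PSMD9. Whether these are genes separate from the members was not examined. Over the 35 members without a neighbour of either kind, the median gap was 210 bp, the median strongest downstream score 37.0 and the median mean score 1000 to 1500 bp away 14.2.

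The motifs were searched from 250 bp upstream to 50 bp downstream of the start on both strands, in all 47 members and in all 19111 genes. TGACNNNGC was found in 14 members (29.8%) and in 14.02% of all promoters, and GAAANNGAA in 7 members (14.9%) and in 7.02%. The ETS-family motif CCGGAAG was found in 18 members (38.3%) and in 14.2% of all promoters, or 18.2% at the members' GC. CCAAT, bound by NF-Y, was found in 19 members (40.4%, against 35.7%) and GGGCGG, bound by SP factors, in 33 (70.2%, against 61.7%). Some of these matches overlap in a promoter, and a match does not show that a factor binds.

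The matches to GAAANNGAA were in PSMB8, PSMB10, PSME1, PSME2, PSMB4, PSMC2 and PSMG4, so the list holds 4 of the 5 interferon-inducible members and not PSMB9. TGACNNNGC in turn was found in the inducible PSMB9, PSME1 and PSME2 as well as in constitutive members. Listed nucleosome positions covered 6 of the 7 matches to GAAANNGAA wholly, and the match of PSMB10, shown above, lay in the gap between positions. The covering positions scored 7.40 at PSMB8 and PSMB4, 6.17 at PSMC2, 14.8 at PSME1, 17.3 at PSMG4 and 22.2 at PSME2. The median score of the list was 14.8. Of 18 matches to TGACNNNGC, 10 were covered. The matches of PSMB3, PSMB6 and PSMD5 shown above lay within gaps of at least 400 bp, but these members were picked for their open upstream region. Covered were also 18 of 24 matches to CCGGAAG, 16 of 25 to CCAAT and 39 of 68 to GGGCGG. Listed positions covered 57.7% of all bases of these promoters, which is the share to read these counts against.

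Genes of the proteasome system with other symbols, called associated factors here whether or not they encode subunits, were described in the same way. Of 13 associated factors, 6 had no midpoint in the 200 bp upstream (beside 24.1% of all genes), namely AKIRIN2, NFE2L1, NGLY1, SEM1, UBE3C and USP14. Their median strongest downstream score was 29.6, and 3 were in the top 10% of their decile: POMP, the proteasome maturation protein (51.8), NFE2L1, the factor that raises proteasome gene transcription when activity is lost (49.4), and NGLY1, which processes that factor (44.4). In 10 of 13 the mean score 1000 to 1500 bp away lay below percentile 50 of the GC decile, with a median percentile of 13.0, which is on the low side like the proteasome genes. The strongest downstream midpoint lay between 100 and 160 bp in 5 of 13, beside 45.2% of all genes.

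Of 10 genes of antigen processing and interferon response, 1 had no midpoint in the 200 bp upstream, namely IRF1, beside 24.1% of all genes. The median mean score 1000 to 1500 bp away was 18.8, and in 4 of 10 it lay below percentile 50 of the GC decile, beside 50.0% of all genes, with a median percentile of 67.6. It was 23.8 at B2M, the light chain of MHC class I, 23.9 at IRF1 and 21.4 at TAP1, next to PSMB9, but 8.23 at ERAP2. High scores away from the start were thus found in some of the interferon-related genes and not in others. Their strongest downstream scores ranged from 16.0 at ERAP1 to 61.7 at TAPBP. In 3 of 10 this score was in the top 10% of the GC decile, beside 9.88% of all genes. Its midpoint lay between 100 and 160 bp in 7 of 10, beside 45.2% of all genes. These traits were therefore not particular to the proteasome genes.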

How the data were processed

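The positions measured were those of 1 pooled list made by the authors from MNase-digested hiPSCs. Its scores are a deposited signal of unstated scaling. The authors trimmed reads with Trimmomatic 0.40, aligned them to GRCh38 and ran the nucMACC workflow with blacklisted regions given, and which runs were pooled and the caller are not given in the sources used here. The methods state that the 50-bp runs were not pursued downstream. Starts, exons and genes came from GENCODE release 44, where the study used release 48, and promoter bases from the GRCh38 reference. Midpoints were interval start plus 70 bp. Percentiles were taken within 10 classes of GC content over 1000 bp centred on the start. By the rule set for named genes, any member could be named, with values in full for immunoproteasome genes, their counterparts and the extremes. The members and lists were chosen with earlier results of these data known. Genes are not replicates and no p-value was computed. Depth per sample is unknown from the list, and intervals over the members served only to class the alternative values. Alternatives were another start, position set, window, upstream length, GC window and number of GC classes. Code was tested on simulated positions. Calculations used Python 3.11.15, NumPy 2.4.6, pandas 2.3.3 and matplotlib 3.10.9.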

Additional observations from a re-analysis of the deposited data

How the results depend on the processing

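Of 67 alternative values for 17 results, 53 were classed as the same, 13 as moved and 1 changed sign. A median was the same if it stayed within a 95% interval of the median over the members. A count was the same within 1.5 times, and a difference for the immunoproteasome genes if it changed by less than the SD over the other members. The interval treats genes as independent, so it is only a yardstick, and it is narrower than the spread over the members. Leaving out positions below the median score moved most. The median gap became 390 bp, against 340 bp over all genes, and its percentile 62.6. The 200 bp upstream were empty in 28 members. The first upstream score became 22.2, the number of positions 9 and the mean score 24.9. The percentile of the score 1000 to 1500 bp away became 40.8 and the ratio of strongest to mean score 1.44. With 300 bp upstream, 3 members were empty. The highest-scoring downstream midpoint lay at 135 bp, where the first lay at 121 bp. A window of 1000 bp gave 10 positions and a mean score of 21.2. From the 5′-most start, 23 members had the strongest downstream midpoint at 100 to 160 bp, and the strongest downstream score of the immunoproteasome genes minus that of the others became 9.87, from -5.55. Of the 17 results, 5 were chosen after seeing the data. No paired analysis was possible because libraries cannot be separated within the pooled positions, and no library could be left out for the same reason. Read totals are not in the list, so the precision of a single score beyond its step of 1.23 is unknown.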
